A study of Drosophila melanogaster with 2 samples.

Results

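The genes described here are 48 protein-coding genes of *Drosophila melanogaster* that encode subunits of the 26S proteasome or close copies of them. They were chosen by symbol alone, as genes named Rpn or Rpt followed by a digit, or Pros followed by alpha or beta, out of 13945 protein-coding genes in the annotation. A subunit gene with a symbol of another form is not among them. Of the 48, 14 encode canonical subunits of the core particle and 18 canonical subunits of the regulatory particle. The other 16 are paralogs whose symbol carries a T or an R after the subunit number. The question was where Abd-B, the most posterior Hox factor of the fly, was found at these genes. Whole embryos aged 4 to 20 h of the strain Abd-B-GFP, a transgenic line that makes Abd-B with GFP at its C-terminus, were used for ChIP-seq with an anti-GFP antibody in 1 group of 2 biological replicates. No second genotype, treatment or stage was available for comparison. Whole embryos mix cells with and without Abd-B, so strong binding in few cells and weak binding in many cannot be told apart.

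The 26S proteasome degrades proteins that carry ubiquitin. Its core particle is a barrel of alpha rings, which form the gate, around beta rings, which hold the proteolytic sites. The regulatory particle caps the barrel: its base holds the Rpt ATPases that unfold substrates, with Rpn1, Rpn2 and the ubiquitin receptors Rpn10 and Rpn13, and its lid holds the deubiquitinase Rpn11 among scaffold subunits. Flies carry additional copies of several subunits, many of them known to be expressed in the testis. Canonical subunit genes are active in nearly all cells.

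Each replicate was represented by a list of 30000 peaks each with a position, a summit, the authors' signal value and their −log10 q-value. The pooled replicates gave another list of that length, and 5033 peaks were kept by the authors under an irreproducible discovery rate (IDR), a measure of agreement between replicates. At a q-value of 0.05 or less stood 4333 peaks of replicate 1, 8557 of replicate 2 and 6677 of the pooled list. Ranks are counted from 1, the highest signal value of a list, and a rank near the end of a full list does not mean enrichment. The peak lists give no read counts, so depth is unknown, and the intervals below cover the counting of genes only.

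Among the 48 subunit genes, 12 had at least 1 transcription start site (TSS) with an IDR summit no more than 1 kb away, which is 25.0% with a 95% Wilson interval of 14.9 to 38.8%. The background was 3484 of 13945 protein-coding genes, or 25.0%, so the share among proteasome genes as a whole was that of genes in general. All 12 were canonical genes: 12 of 32 canonical genes had a summit (37.5%, 22.9 to 54.7%) and 0 of 16 paralogs did (upper limit 19.4%). The canonical gene Prosalpha1 and its paralog Prosalpha1R count as without a summit, although reads from these copies cannot be told apart. In the core particle the count was 6 of 14 (42.9%, 21.4 to 67.4%) and in the regulatory particle 6 of 18 (33.3%, 16.3 to 56.3%), and these intervals overlap widely. Within the core, the alpha ring had 4 of 7 and the beta ring 2 of 7. Within the regulatory particle, the lid had 4 of 8 and the base 2 of 10. In the full lists, which hold many weak peaks, 21 of 48 members had a pooled summit at the same distance (background 50.6% of protein-coding genes), 31 had one in replicate 1 (background 55.1%) and 21 in replicate 2 (background 48.9%). No test was run on these counts, because the genes form 1 small list and are not replicates.

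**Figure D1:**
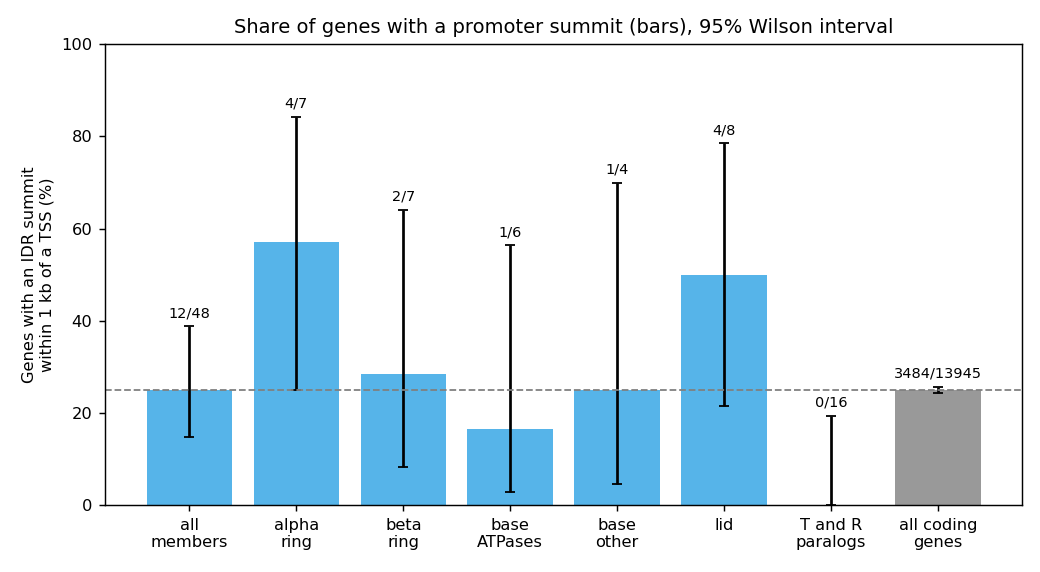
Percentage of genes with an IDR summit at most 1 kb from a TSS (bars) for the 48 members, each class of canonical subunit and the paralogs, with all 13945 protein-coding genes at the right; error bars are 95% Wilson intervals and the dashed line is the background of 25.0%. The paralogs stand at 0 of 16, and the alpha ring stands highest at 4 of 7, with the lower end of its interval at 25.0%.

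Sequence is printed here for 6 of the 12 promoters, and these stretches were AT-rich. They do not stand for all 12 summits in GC content or in motif words. Each line gives the bases within 100 bp of the summit that lie outside annotated exons, read 5′ to 3′ on the strand of the subunit gene from the RefSeq genome (dm6), with capitals for any match to the motifs TTTATGG or TTTATTG (Abd-B), TAATTA (Hox core), TATCGATA (DREF), GGTCACAC (motif 1), CGATA (BEAF-32) or TGACNNNGC (CncC-type) on either strand. The windows are chr3R:5789191-5789328 (+) for Rpn5, chr2L:19051700-19051789 (+) for Rpn3, chr2L:5059922-5060122 (−) for Rpn11, chrX:11124891-11125091 (+) for Rpt3, chrX:16275918-16276067 (+) for Prosalpha4 and chr3R:9006227-9006404 (−) for Prosbeta3. The first 3 carry the strongest summits of the family and the other 3 are among its 4 weakest.
Rpn5: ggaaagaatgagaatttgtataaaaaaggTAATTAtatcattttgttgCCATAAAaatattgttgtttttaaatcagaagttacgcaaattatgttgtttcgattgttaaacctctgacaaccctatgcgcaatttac
Rpn3: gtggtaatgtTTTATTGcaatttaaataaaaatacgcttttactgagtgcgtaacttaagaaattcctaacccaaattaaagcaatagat
Rpn11: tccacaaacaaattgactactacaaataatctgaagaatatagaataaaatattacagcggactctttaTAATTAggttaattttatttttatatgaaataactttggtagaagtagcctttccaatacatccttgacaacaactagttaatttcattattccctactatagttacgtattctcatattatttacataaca
Rpt3: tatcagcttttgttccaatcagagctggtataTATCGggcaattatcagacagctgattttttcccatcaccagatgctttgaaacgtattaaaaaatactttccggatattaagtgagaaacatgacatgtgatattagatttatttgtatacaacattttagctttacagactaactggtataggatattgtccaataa
Prosalpha4: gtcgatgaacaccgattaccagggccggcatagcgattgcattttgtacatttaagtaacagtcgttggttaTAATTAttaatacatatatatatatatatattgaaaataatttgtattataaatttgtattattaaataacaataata
Prosbeta3: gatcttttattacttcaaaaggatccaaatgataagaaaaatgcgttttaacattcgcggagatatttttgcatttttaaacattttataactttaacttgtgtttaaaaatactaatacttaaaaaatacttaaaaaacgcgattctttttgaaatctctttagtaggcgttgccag
The capitals mark 1 Hox core word and 1 Abd-B word at Rpn5, 1 Abd-B word at Rpn3, and a Hox core word each at Rpn11 and Prosalpha4. At Rpt3 they mark 1 BEAF-32 word, and in the Prosbeta3 stretch none of the words was found. GC content of these stretches ran from 24.7% at Prosalpha4 to 32.3% at Rpt3. With exons included, the 201 bp around the Prosalpha4 summit had 30.8%. The Rpn3 stretch ends before its summit, which lies in an exon, and so leaves out the DREF word centred about 69 bp from that summit. Over 201 bp, the summits not printed ran from 31.3% at Rpn8 to 38.3% at Prosbeta1. Among them the DREF word was found at Rpn13, Prosbeta1, Prosalpha5 and Prosalpha3.

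The lid held the 3 strongest summits of the family. At Rpn5, a scaffold subunit of the lid, the peak at 5789194 to 5789297 on 3R had its summit 202 bp upstream of the TSS and ranked 746 of 5033 (signal value 536). It ranked 726 in replicate 1 and 855 in replicate 2, with the replicate summits 0 and 2 bp away. At Rpn3, also a scaffold subunit, the peak at 19051747 to 19051874 on 2L had its summit 10 bp downstream of the TSS, in an exon of the gene, and ranked 1165 (signal value 419.7). This summit was weaker in replicate 1, at rank 2189, than in replicate 2, at rank 975. At Rpn11, which removes ubiquitin from substrates, the peak at 5059827 to 5060216 on 2L had its summit 232 bp upstream, between genes, and ranked 1217, with rank 1265 in replicate 1 and 1268 in replicate 2. The IDR peaks at Rpn5 and Rpn3 were 104 and 128 bp wide, while the other 10 were 390 bp wide, the median width of the IDR list. In replicate 1 the peaks at both genes were 384 bp wide. In replicate 2 they were 302 bp wide at Rpn5 and 184 bp at Rpn3.

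The other lid genes spread from a clear peak to none, and the replicates differed at several of them. Rpn8, the inactive partner of Rpn11, had an IDR summit at rank 3018 on 2R (24402660 to 24403049), 150 bp upstream of the downstream start of its 2 and inside an intron of its longer transcript. It ranked 2239 in replicate 2 and only 7171 in replicate 1, where its −log10 q-value was 0.515, short of the 1.30 that a q-value of 0.05 gives. Rpn7 stood just below the IDR list, at rank 5961 of the pooled list, with rank 4463 in replicate 2 and 26691 in replicate 1. Rpn12 ranked 11890 in the pooled list and 8603 in replicate 2, with no replicate 1 summit within 1 kb, and Rpn9 had a summit in replicate 2 alone, at rank 28193. Rpn6 showed the opposite pattern: replicate 1 had a peak at rank 847 (14752222 to 14752605 on 2R), with a −log10 q-value of 3.60. That peak lay inside the gene, with its summit 143 bp upstream of the downstream start of its 2. Neither replicate 2 nor the pooled list had any summit within 1 kb.

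In the base, 2 of 10 genes had an IDR summit. Rpn13, a ubiquitin receptor, was the stronger, at rank 1703 (13960343 to 13960732 on 2R, signal value 335) with the summit 134 bp upstream of its TSS, rank 1538 in replicate 1 and 1960 in replicate 2. Rpt3, an ATPase of the hexameric ring, ranked 4260 (11124796 to 11125185 on X) with a summit 110 bp upstream, rank 3433 in replicate 1 and no replicate 2 summit within 1 kb. Of the other ATPase genes, Rpt6 and Rpt2 lay just outside the IDR list, at pooled ranks 5301 and 5360 and 45 and 47 bp upstream of the TSS. Rpt6 was similar in the replicates, at rank 4899 in replicate 1 and 5767 in replicate 2, but Rpt2 ranked 21053 in replicate 1 and 4087 in replicate 2. Rpt4 ranked 10818 in the pooled list, while Rpt1 and Rpt5 had summits in replicate 1 alone, at ranks 23363 and 26842. Of the scaffold genes, Rpn2 ranked 22636 in the pooled list and 10908 in replicate 1, with summits 737 and 733 bp downstream of its TSS. Its replicate 2 summit, at rank 21658, lay at another site, 55 bp upstream. Rpn1 had a summit in replicate 1 alone, at rank 7173. The ubiquitin receptor gene Rpn10 had no summit within 1 kb in any list.

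In the core particle, 4 of 7 alpha ring genes and 2 of 7 beta ring genes had an IDR summit, with intervals (25.0 to 84.2% and 8.22 to 64.1%) that overlap. Prosalpha5 led the alpha ring at rank 2799 (17412499 to 17412888 on 2R), 73 bp upstream of its TSS, with ranks 2757 and 3003 in replicates 1 and 2. Prosalpha3 followed at rank 3254 (20994614 to 20995003 on 2R, 91 bp upstream), with ranks 4411 and 3140 in replicates 1 and 2. Prosalpha7 at rank 4485 (9847708 to 9848097 on 2R, 67 bp upstream) ranked 3232 in replicate 1 and 4833 in replicate 2, but its replicate 1 summit lay 205 bp upstream, so it had no replicate 1 partner within 100 bp. Prosalpha4 at rank 4758 (16275772 to 16276161 on X, 303 bp upstream) ranked 13203 in replicate 1 and 3775 in replicate 2. Prosalpha6 resembled Rpn6: replicate 1 had a peak at rank 3608, 138 bp upstream, and the other lists had none. Prosalpha2 appeared in all 3 full lists, but no higher than rank 11598.

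Among the genes of the beta ring, Prosbeta1, which carries the caspase-like site, had the strongest summit of the core particle, at rank 2396 (16014672 to 16015061 on 2R). That summit lay 80 bp upstream of the TSS and ranked 2503 in replicate 1 and 2501 in replicate 2. Prosbeta3, a subunit without a proteolytic site, was the last member inside the IDR list, at rank 5015 of 5033 (9006109 to 9006498 on 3R, 78 bp upstream), with ranks 4152 and 6418 in replicates 1 and 2. Prosbeta2, which carries the trypsin-like site, ranked 12798 in the pooled list. Prosbeta5, which carries the chymotrypsin-like site, Prosbeta4 and Prosbeta7 had no summit within 1 kb in any list, and Prosbeta6 had 1 in replicate 1 alone, at rank 25396.

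**Figure D2:**
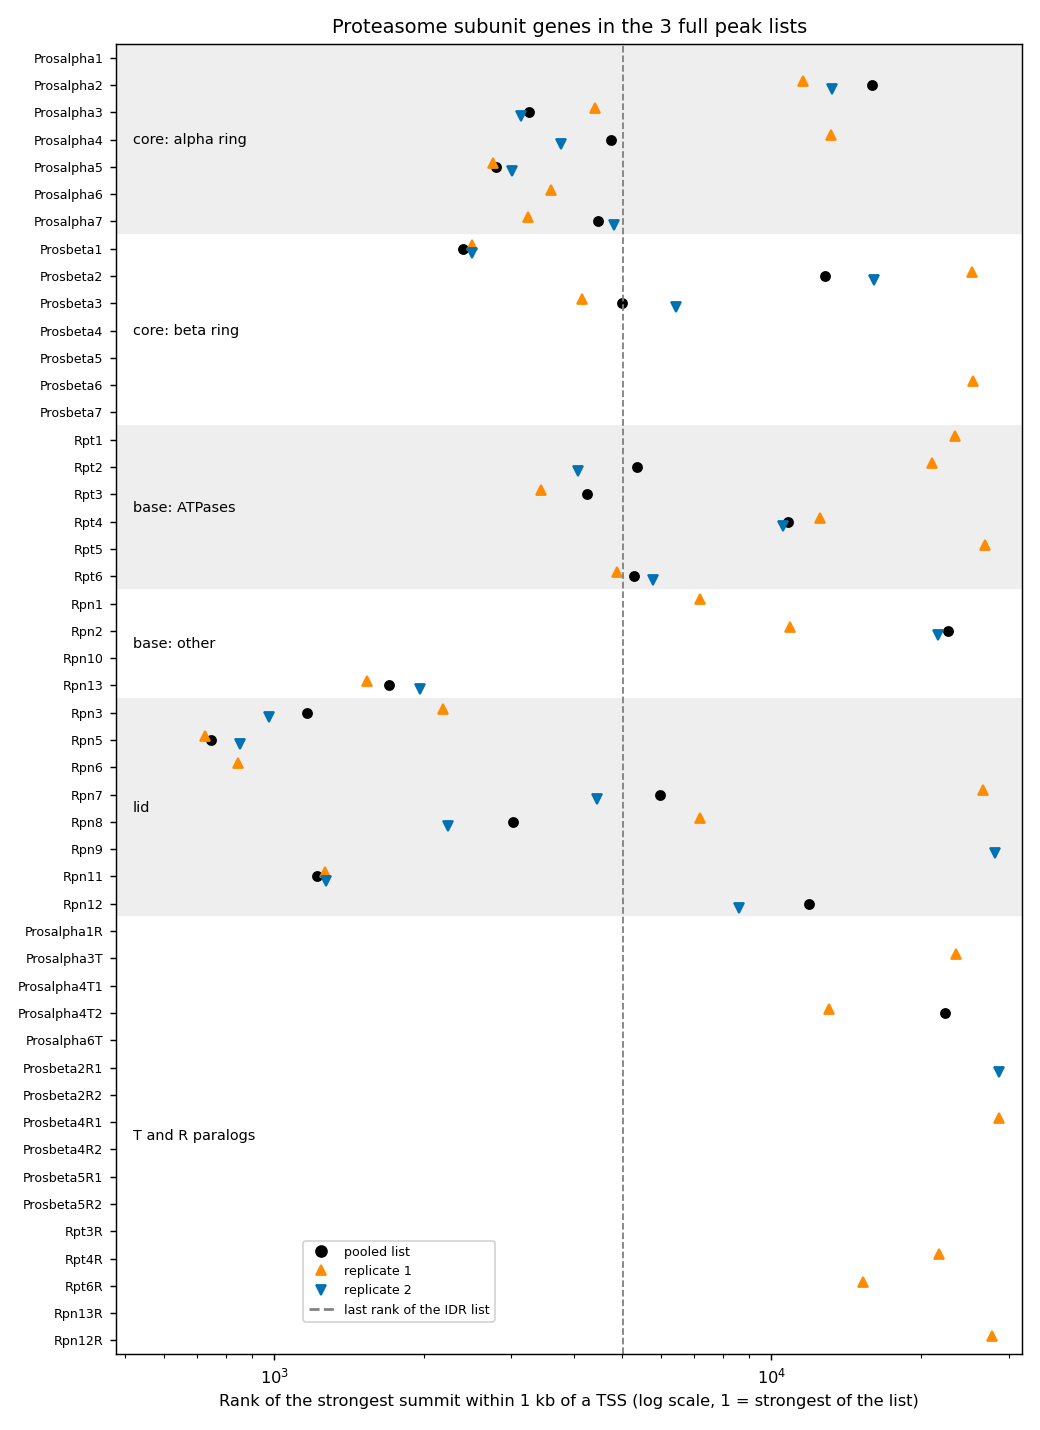
Rank of the strongest summit within 1 kb of a TSS for each of the 48 genes (rows, by class) in the pooled list (black circles), replicate 1 (orange triangles up) and replicate 2 (blue triangles down), on a log axis with strong peaks at the left; genes with no symbol have no summit in that list, and the dashed line is rank 5033, the end of the IDR list. The lid genes Rpn5, Rpn3 and Rpn11 lie farthest left in the pooled list, Rpn6 has a strong replicate 1 symbol alone, and no paralog lies left of the line.

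The paralogs had few peaks, all of them weak. Of the 16, 9 had no summit within 1 kb in any of the lists, among them Prosalpha4T1, Prosalpha6T, Prosbeta5R1, Prosbeta5R2 and Rpt3R. In the pooled list 1 of 16 had a summit (6.25%, 1.11 to 28.3%), Prosalpha4T2 at rank 22389. The canonical genes had 20 of 32 (62.5%, 45.3 to 77.1%), an interval that contains the background of 50.6% of all protein-coding genes. In replicate 1, 6 of 16 had a summit (background 55.1% of genes), the highest being Prosalpha4T2 at rank 13067 and Rpt6R at rank 15278. In replicate 2 only Prosbeta2R1 had one, at rank 28641 (background 48.9%). At a q-value of 0.05 or less no paralog had a summit in replicate 1 (background 23.4% of genes), in replicate 2 (background 31.5%) or in the pooled list (background 28.8%). For Prosalpha1 and Prosalpha1R, neighbours on 2R, the lists are of little use. Their genes matched at all 1359 aligned bases and their 1 kb upstream at all 983, so reads from the copies cannot be placed on 1 of them. Neither gene had a summit in any list, and both are counted as genes without one in the shares given here.

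The summits lay close upstream of the starts. For the 12 genes the strongest IDR summit was upstream in 11. The median signed position over all 12, Rpn3 included, was 100.5 bp upstream of the TSS (quartiles 163 and 76.8 bp upstream). Over the 3484 protein-coding genes that had one, 87.1% of summits were upstream. Their median signed position, with downstream summits included, was 149 bp upstream (quartiles 268 and 73 bp upstream). In strength the members ran from rank 746 to 5015 with a median of 2908.5, while all genes with a summit had a median of 1891.5. With the IDR list split by rank into 4 equal parts, from strongest to weakest, the members counted 3, 2, 3 and 4, against 36.1%, 26.3%, 21.6% and 16.0% of all genes with a summit. The regulatory particle members had a median rank of 1460 and the core members one of 3869.5, from 6 genes each.

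Most of these promoters were shared with a divergent neighbour. A gene counted as having a head-to-head neighbour where the nearest TSS of another protein-coding gene lay within 1 kb upstream, on the other strand. That held for 10 of the 12 genes with a summit (83.3%), beside 55.2% of all protein-coding genes with a summit, and for 11 of the 20 canonical genes without (55%). In all, 21 of 32 canonical genes had such a neighbour (65.6%), against 3 of 16 paralogs (18.8%) and 33.2% of all protein-coding genes. Among canonical genes with a head-to-head neighbour 10 of 21 had a summit (47.6%), beside 41.6% of all such genes, and among those without, 2 of 11 did (18.2%), beside 16.7% of genes. These shares rest on 21 and 11 canonical genes, are given without intervals and were not tested.

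The neighbour was nearer to the summit than the subunit gene in 3 of the 12 cases. The Rpn5 summit lay 93 bp inside Hat1, which encodes a histone acetyltransferase, in an intron. The Prosbeta1 summit lay 41 bp upstream of Rrp42, an exosome subunit gene, within the 121 bp between the starts. The Prosalpha4 summit lay in an intron of kat80, a katanin subunit, 50 bp upstream of its nearest start. The subunit gene owned the nearest coding TSS in 9 of 12 cases (75.0%), beside 67.6% of all genes with a summit. Of the 10 genes with a head-to-head neighbour, 7 had the summit between their own TSS and the divergent TSS nearest to it: Rpn13 facing CtsL1, Prosbeta1 facing Rrp42, Rpn8 facing Slik, Prosalpha3 facing dgt3, Rpt3 facing CG11122, Prosalpha7 facing CG1671 and Prosbeta3 facing Iru. That is 70.0%, beside 80.4% of the 1999 genes that had a summit and any divergent coding TSS within 1 kb of the start the summit was assigned to, whether or not another TSS was nearer. With any such divergent TSS in place of the nearest, Rpn5 and Prosalpha4 also had the summit between starts, which made 9 of 10 (90%), beside 87.1%. This second count was added after the data were seen. Prosalpha5 alone had no other coding TSS within 1 kb of its summit. A summit between divergent starts cannot be assigned to either gene from these lists.

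**Figure D3:**
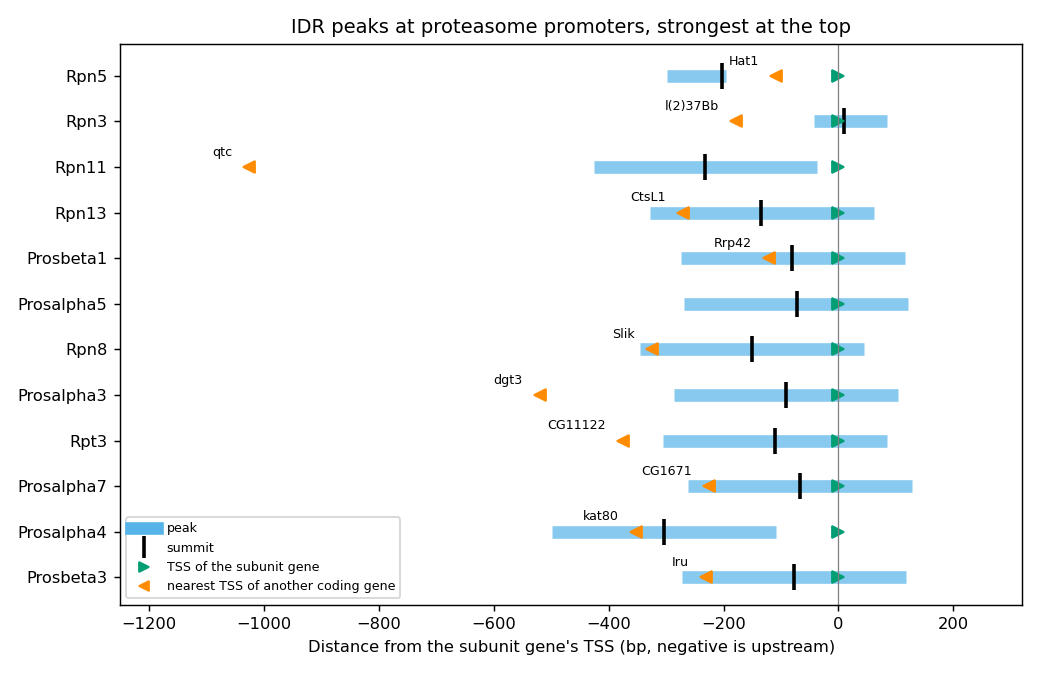
The 12 IDR peaks at subunit genes (blue bars, summits as black ticks) on an axis of distance from the subunit gene's TSS in bp, negative upstream, ordered by rank with the strongest at the top; green arrowheads are the subunit gene's TSS and orange arrowheads the TSS of another coding gene nearest to the summit. The summits run from 303 bp upstream (Prosalpha4) to 10 bp downstream (Rpn3), and at Rpn5 the summit lies beyond the Hat1 start.

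The DNA under the member summits was AT-rich, as at other promoter summits. Over 201 bp its GC content averaged 32.0% (SD 3.64, 12 summits), from 25.9% at Rpn11 to 38.3% at Prosbeta1, against 34.6% (SD 7.27) at 2749 IDR summits within 1 kb of a coding TSS. The DREF word TATCGATA, bound by a factor known from promoters of replication and growth genes, lay within 100 bp of 5 of the 12 summits (Rpn3, Rpn13, Prosbeta1, Prosalpha5 and Prosalpha3), beside 7.02% of promoter summits. At Prosalpha3 the summit lay inside this word. The BEAF-32 word CGATA, which lies inside TATCGATA so that each DREF match counts for it too, was found at 8 of 12, beside 37.2%. The Abd-B words were found at 4 of 12 (Rpn5, Rpn3, Rpn8 and Prosalpha7), beside 18.0% of promoter summits, and the Hox core word at 3 of 12 (Rpn5, Rpn11 and Prosalpha4), beside 20.2%. Motif 1 was found at Rpn8 alone, beside 4.55%, and the CncC-type word at none, beside 5.02%. At Rpt3 the BEAF-32 word was the only match and at Prosbeta3 there was none.

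The DREF word was found at canonical subunit promoters with and without a summit. In the 300 bases from 250 bp upstream of the most upstream TSS to 50 bp after it, it was present at 5 of 12 canonical genes with a summit, at 7 of 20 without (35.0%), at 0 of 16 paralogs and at 9.36% of all protein-coding genes. The genes without a summit that held it were Prosalpha6, Prosbeta2, Prosbeta6, Rpn7, Rpn9, Rpn12 and Rpt5. The CGATA word was present at 27 of 32 canonical promoters (84.4%), 8 of 16 paralogs (50%) and 47.4% of all. Abd-B words were present at 7 of 32 canonical promoters (21.9%), 4 of 16 paralogs (25.0%) and 19.2% of all. The Hox core word TAATTA was present at 3 of 32 canonical promoters (9.38%), 2 of 16 paralogs (12.5%) and 20.4% of all, and at 0 of the 12 canonical genes with a summit, beside 23.9% of all genes with a summit. These promoter stretches are counted from the TSS and differ from the stretches around the summits, where the word was found at 3 of 12. The CncC-type word TGACNNNGC, of the kind bound by the factor that raises proteasome gene expression under stress, was present at 5 of 32 canonical promoters (15.6%), 1 of 16 paralogs (6.25%) and 8.63% of all. Median GC content of these promoters was 33.5% in canonical genes, 32.7% in paralogs and 38.0% in all genes.

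**Figure D4:**
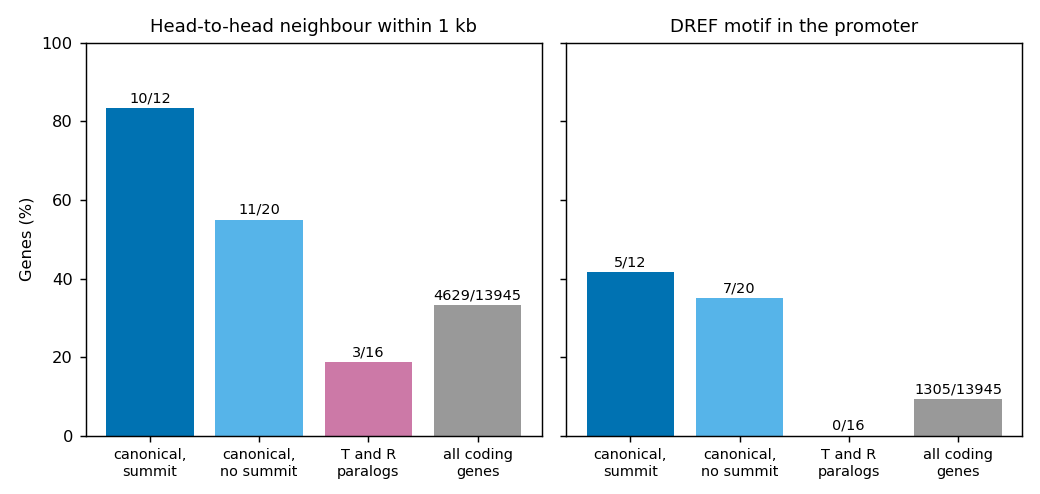
Percentage of genes with a head-to-head coding neighbour within 1 kb (left) and with the DREF word on either strand of the 300 base promoter (right), for canonical subunit genes with and without an IDR summit, the paralogs and all protein-coding genes, with counts above the bars. A neighbour was present at 10 of 12 and 11 of 20 canonical genes, and the DREF word at 5 of 12 and 7 of 20, with 0 of 16 paralogs.

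The replicates shared only some of the stronger member summits. At a q-value of 0.05 or less, 11 of 48 members had a summit in replicate 1 (22.9%, beside 23.4% of genes), 14 in replicate 2 (29.2%, beside 31.5%) and 15 in the pooled list (31.2%, beside 28.8%). Both replicates held 8 of these genes, while 3 passed in replicate 1 alone and 6 in replicate 2 alone. The 8 shared genes are 72.7% of the replicate 1 genes and 57.1% of the replicate 2 genes, beside 90.3% and 67.0% over all protein-coding genes. The genes of replicate 1 alone were Rpn6, Prosalpha6 and Rpt3, and those of replicate 2 alone were Rpn7, Rpn8, Rpt2, Rpt6, Prosalpha3 and Prosalpha4. Of the 12 IDR summits 10 had a partner within 100 bp in both full lists (83.3%, 55.2 to 95.3%), beside 91.7% of 2749 promoter summits. The exceptions were Rpt3, without one in replicate 2, and Prosalpha7, without one in replicate 1. Of the 11 genes that passed in replicate 1, Rpn6 and Prosalpha6 had no pooled summit within 1 kb of their replicate 1 summit (18.2%). Over all genes that passed there the share was 5.85%.

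Genes that work with the proteasome were described beside its subunits. Of 4 genes matched from a list of assembly factors and other proteasome proteins, 2 had an IDR summit. These were Pomp, the maturation factor of the core particle, at rank 760 (219 bp upstream), and PI31, a proteasome regulator, at rank 4475. Of 13 activators, deubiquitinases and regulators, 4 had one, led by Keap1, the inhibitor of CncC, at rank 514, where the nearest coding TSS was that of kuk, and by p47 at rank 1272, with Ufd1 (rank 2917) and maf-S (rank 3954, nearer to rig) after them. The gene of CncC itself, cnc, had a pooled summit at rank 5797, below the IDR list. Of 20 ubiquitin genes and core ubiquitin enzymes, 11 had one (55%, 34.2 to 74.2%), led by SkpA at rank 523 (962 bp upstream, nearer to Hmt4-20), the ubiquitin activating enzyme gene Uba1 at rank 1270, Cul1 at rank 1429 and the polyubiquitin gene Ubi-p63E at rank 1663. The COP9 signalosome, whose subunits resemble those of the lid, had 3 of 8, with alien, which encodes its subunit CSN2, at rank 207 (nearer to CG18661), CSN7 at rank 2386 and CSN6 at rank 2985. The intervals of the 3 other lists were 15.0 to 85.0% for the first, 12.7 to 57.6% for the regulators and 13.7 to 69.4% for the COP9 signalosome. All 4 counts stand beside the same background of 25.0% and were not tested.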

How the data were processed

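ChIP-seq of Abd-B-GFP embryos gave 1 peak list per replicate, a pooled list and an IDR list, on build dm6, per the labels. The deposited text descriptions say that each replicate list came from its own alignment and that both used the same control. For the aligner and the caller of peaks, name and version were not given in the sources used here. Chromatin was fragmented to between 200 and 800 bp, per the labels. The authors' signal value per peak, of unstated scale, was used here only to rank peaks within a list, and the deposited −log10 q-value served as a threshold. Signal tracks and control alignments were not used here.

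Ranks follow the signal value, with ties settled by q-value and position. Summits were set against every annotated TSS of 13945 protein-coding genes (Ensembl release 115) on the 6 main arms, and the 1 pooled and 1 replicate 2 peak elsewhere were left out. No peak ended beyond the arms of the RefSeq genome. Coordinates are 1-based. A summit counted for every gene with a TSS within 1 kb. Replicate partners lay within 100 bp. Motif words were sought on both strands. Genes of the pathway were matched by symbol or a unique synonym.

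The members and lists were chosen with earlier results of these data known, so only counts, shares, ranks and medians are given, with no test. Every member could be named, and from the other lists up to 4 genes with the strongest summits, apart from cnc, which was named after its value was seen. Alternatives were other windows, TSS choices, peak lists, single replicates and partner distances. The functions were tested on simulated peaks and planted motifs. Counts and intervals were computed with pandas 2.3.3, numpy 2.4.6 and scipy 1.17.1 under Python 3.11.15, and plots were drawn with matplotlib 3.10.9.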

Additional observations from a re-analysis of the deposited data

How the results depend on the processing

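The count of members with a summit changed most with the 5 kb window and with the 1000 strongest peaks. With a 5 kb window the counts were 24 for all members, 10 for the core particle, 13 for the regulatory particle and 1 for the paralogs (Prosbeta2R2), beside 44.4% of all genes. Among the 1000 strongest peaks they were 1 for all members (Rpn5), 0 for the core particle and 1 for the regulatory particle, beside 7.41% of all genes. Without replicate 1 or 2 the counts were 12 and 13 for all members, beside 24.5% and 25.6% of all genes. They were 5 and 6 for the core particle, 7 and 7 for the regulatory particle and 0 and 0 for the paralogs. Each of those 2 settings took the 5033 strongest peaks of the other replicate's full list, with no new IDR step. In replicate 1 only 4333 peaks had a q-value of 0.05 or less. Each setting shared 10 genes with the IDR list. Without replicate 2, Rpn6, Prosalpha6 and Rpt6 came in and Rpn8 and Prosalpha4 dropped out. Rpt6 had a −log10 q-value of 1.05 in replicate 1, short of the 1.30 at a q-value of 0.05. Without replicate 1, Rpn7 and Rpt2 came in and Rpt3 and Prosbeta3 dropped out. All members numbered 12 with a 500 bp window, beside 21.8% of all genes. In the pooled list at a q-value of 0.05 or less they numbered 15, beside 28.8%. With the most upstream TSS only they numbered 11, beside 23.2%, and Rpn8 was dropped. When a summit counted only for the nearest coding TSS they numbered 9, beside 17.5%, and Rpn5, Prosbeta1 and Prosalpha4 were dropped. The median summit position, with upstream counted as negative bp, was -91 with the most upstream TSS, -132 without replicate 2 and -119 without replicate 1, beside -100.5 in the report. The counts of summits with a partner in both replicates were 10 within 50 bp, 11 within 250 bp and 7 among replicate peaks at a q-value of 0.05 or less. The cause of these changes was not tested. No paired analysis was possible because there is 1 group. Without read counts, a missing peak means only that it was not among those listed.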

Other observations

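Some subunit genes without a promoter summit had an IDR summit a little beyond the 1 kb window. For Prosbeta6 the nearest lay 1058 bp from its TSS (rank 4756) and for Rpn12 1242 bp away (rank 1767). Rpn7 followed at 2578 bp (rank 3450), Prosalpha2 at 2699 bp (rank 1956) and Rpt2 at 2891 bp (rank 3397). Among the paralogs the nearest was at 3982 bp, for Prosbeta2R2 (rank 3387), while Prosbeta4R1 and Prosbeta4R2 had none nearer than 76147 bp. Rpn3 and Rpn8 were the members with an IDR summit inside the gene itself, 1 each, both described above.

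By chromosome arm, of 13 members on 2R, 6 had one, beside 22.4% of the protein-coding genes there, while 0 of 7 members on 3L had one, beside 26.7% of genes. The counts were 2 of 14 on 3R (beside 26.2% of genes), 2 of 8 on 2L (beside 24.1%) and 2 of 6 on X (beside 26.3%). These are counts of single genes and were not tested.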
